A study of Mus musculus with 8 samples.

Results

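The glycolysis, lactate and glycogen genes are 32 named genes that carry glucose into the cell, break it down to pyruvate, exchange pyruvate with lactate, move lactate across the plasma membrane, and build or degrade glycogen. They were chosen by name and matched to the 50599 gene records through GENCODE symbols, and all 32 were found. Their RNA was measured in whole hearts of 12-week-old male C57BL/6N mice, as 4 wildtype and 4 Lrpprc knockout libraries, each from 1 animal. The wildtype animals were Lrpprc loxP/loxP mice without Cre, and the knockout animals were Lrpprc loxP/loxP, Cre+ mice which lost it from heart and skeletal muscle. Both groups therefore carried the floxed allele. The promoter that drives Cre is not given in the sources used here, and the other cell types of a whole heart are not targeted by a muscle-restricted deletion. Lrpprc encodes an RNA-binding protein of mitochondria that holds mitochondrial mRNAs in a stable and translatable state.

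The adult heart makes most of its ATP in mitochondria from fatty acids, and glucose is a smaller fuel. Glycolysis yields ATP in the cytosol without oxygen or a respiratory chain, and lactate dehydrogenase regenerates the NAD+ that it needs. Many steps are encoded by several genes, of which a striated-muscle form (Slc2a4, Pfkm, Pgam2, Eno3, Pygm) predominates in adult muscle and a broadly expressed form (Slc2a1, Pfkl and Pfkp, Pgam1, Eno1) predominates in most other tissues and in the fetus. Glycogen is the stored glucose of the heart, and the fetal heart holds more of it than the adult heart.

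The libraries held from 35218541 to 47743376 expected counts, of which mitochondrial rRNA took from 44.0% to 46.9% in the wildtype and from 65.6% to 67.8% in the knockout libraries. Lrpprc itself averaged 3665 ± 216 normalised counts in wildtype and 577 ± 48.6 in knockout hearts (SD, n = 4 each), 6.35-fold lower. A normalised count here is an expected count divided by a factor for the library's depth and for the gene's effective length in that library. Among genes that mark cell types, 7 of 8 cardiomyocyte genes were lower in the knockout, and their summed level fell from between 1113960 and 1222290 to between 525100 and 679641 normalised counts. In RNA from whole hearts, fewer cardiomyocytes and less of these RNAs per cardiomyocyte cannot be told apart. Of the macrophage genes 4 of 6 were higher, with sums of 3793 to 5176 in the wildtype and 3722 to 9559 in the knockout. That count was 2 with edgeR and without knockout replicate 2 or 4 or wildtype replicate 1 or 2, 1 under total-count scaling, 5 under that scaling without mitochondrial rRNA, and 6 without knockout replicate 3. Of the fibroblast genes 2 of 6 were higher, and 3 without knockout replicate 1 or 3 and under total counts without mitochondrial rRNA. The 6 endothelial genes summed to 16211 to 17828 in the wildtype and 12342 to 20324 in the knockout. The smooth muscle and pericyte genes summed to 17135 to 18625 and 12356 to 15853, and the atrial genes to 9980 to 12038 and 1268 to 6012, so both sums were lower in every knockout library under the size factors of DESeq2, with the atrial genes Myl7 11.6-fold and Sln 7.15-fold lower. Of the 5 smooth muscle and pericyte genes 2 were lower and none higher, but 4 were lower under total counts, and 2 were higher and 2 lower under total counts without mitochondrial rRNA, so no direction is given for that list. Of 8 genes of skeletal muscle fibres, all except Mybpc2 stayed at or below 24.96 normalised counts in each library. Within the knockout group, replicate 3 had the lowest atrial sum, 1268 against 3233 to 6012 in the others, and members whose call or sign changes without it are given with and without it. It also had the highest sum of 5 erythroid genes, at 15231, 45829, 53861 and 22067 in knockout replicates 1 to 4 against 20882 to 27049 in the wildtype. None of the 5 erythroid genes passed in DESeq2 (adjusted p from 0.243 to 0.612), while 4 were higher without knockout replicate 1 and 3 under total counts without mitochondrial rRNA.

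Glycolysis, lactate and glycogen genes were more often higher than lower in the knockout hearts. Of the 32 genes, 18 were higher, 6 were lower and 8 did not pass the threshold, an adjusted p of 0.05 in DESeq2 over all genes tested. Called genes made up 75.0% of the members, against 33.7% of the 19959 genes tested, of which 18.2% were higher and 15.5% lower. The median log2 fold change was 0.60 over the members and 0.005 over all genes tested. The 4 knockout values lay wholly outside the 4 wildtype values for 23 members, all of them called, where 33.0% of all genes tested showed such a separation. At least a 1.5-fold change was reached by 19 of the called members, 16 higher and 3 lower. The split depended on the scaling between libraries. Scaling to total counts, which contain more mitochondrial rRNA in the knockout, moved the median log2 fold change of genes averaging 10 or more normalised counts by -0.296 and gave 17 higher and 9 lower members, where 1924 of all genes were called higher and 5912 lower. Scaling to total counts without mitochondrial rRNA moved it by 0.425 and gave 22 higher and 3 lower members, where 7950 of all genes were called higher and 1111 lower. Higher genes made up 75.0% of the called members and 53.9% of all called genes under the size factors of DESeq2, 65.4% and 24.6% under total counts, and 88.0% and 87.7% under total counts without mitochondrial rRNA, so under that scaling the share of higher calls was near the background. Relative to that median, which was 0.0186 under the size factors of DESeq2, the members' median was 0.58 under each of these scalings. That follows from arithmetic, because a change of scaling moves all genes by nearly the same amount. Without knockout replicate 3 the split was 18 higher and 7 lower. That library, which also held the highest erythroid sum, had the highest knockout value of 13 members, 11 of them among the 18 higher. Without it 10 of those 11 were still higher, the exception being Gys1, and the part of erythroid cells in these values was not tested.

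**Figure D1:**
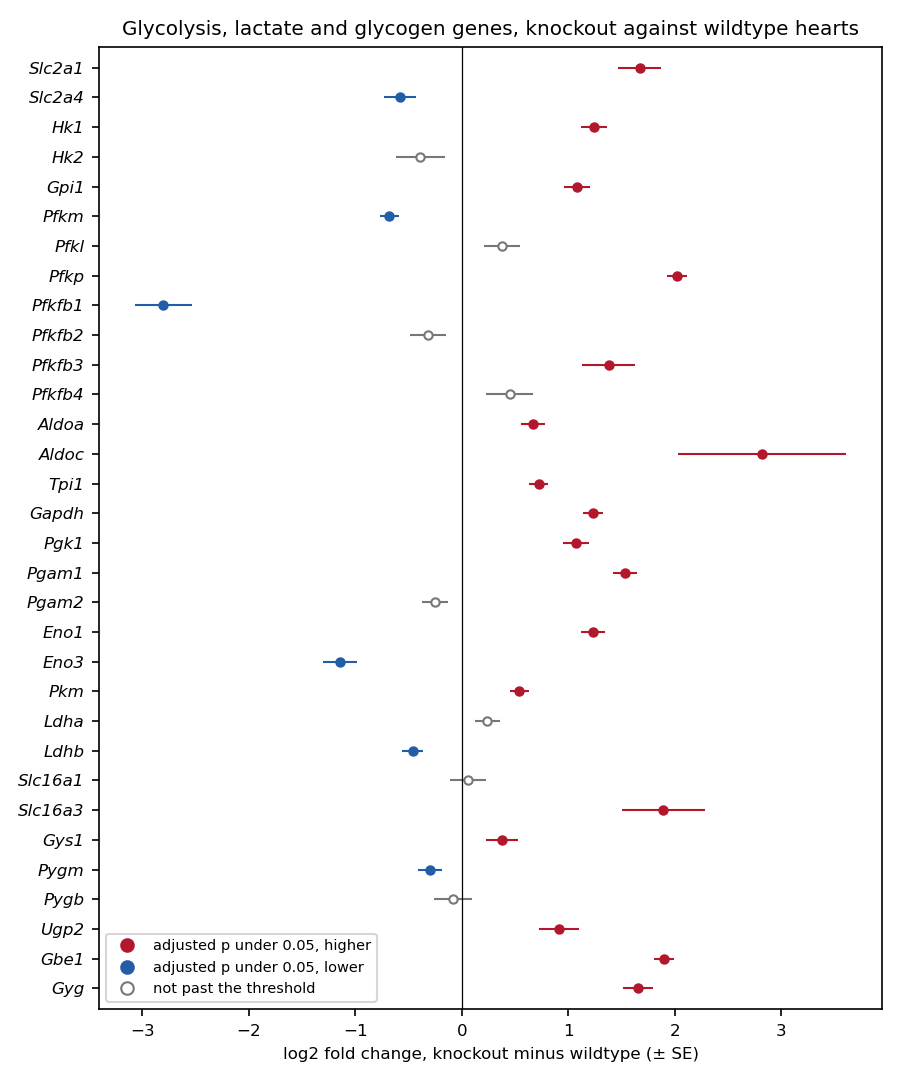
Log2 fold change of each of the 32 genes, knockout minus wildtype, on the horizontal axis with its standard error from DESeq2 as the bar, with genes ordered from glucose uptake at the top to glycogen at the bottom. Filled red points are the 18 genes that were higher, filled blue points the 6 that were lower and open grey points the 8 that did not pass the threshold, and the largest shifts are Pfkp, Slc16a3, Gbe1 and Aldoc to the right and Pfkfb1 to the left.

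Glucose uptake moved in opposite directions for its 2 transporters. Slc2a1, which encodes the broadly expressed transporter GLUT1, measured 268.2, 193.6, 221.9 and 241.1 normalised counts in the 4 wildtype hearts and 705.8, 591.2, 607.8 and 1044 in the 4 knockout hearts, given here and below in the order of the replicate numbers. Every knockout library was above every wildtype library, and replicate 4 was the highest. The fold change was 3.19, a log2 value of 1.67 ± 0.20 (SE), with an adjusted p of 6.72e-15 in DESeq2. Slc2a4, which encodes the insulin-responsive GLUT4 of muscle and fat, measured 5487, 5996, 6253 and 6001 in the wildtype and 5325, 3469, 3467 and 3569 in the knockout. Knockout replicate 1 was close to the lowest wildtype library and the other 3 were well below, for a log2 fold change of -0.58 ± 0.15 (adjusted p = 0.000869). That call was lost, with a log2 fold change of -0.16, under scaling to total counts without mitochondrial rRNA. Per kilobase of effective length, the scale on which genes can be set side by side, Slc2a4 remained the more abundant transporter RNA, at 1877 ± 433 against 288 ± 82.2 normalised counts per kilobase (SD, n = 4) in the knockout. The share of Slc2a1 in the sum of both, which does not depend on the scaling between libraries, was 3.12 ± 0.56% in the wildtype and 13.5 ± 4.1% in the knockout.

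Shares of this kind were compared for 13 isoforms in 10 families by a two-sided exact permutation test over all 70 assignments of the libraries, in which 0.0286 is the smallest p possible. In 10 of the 13 the groups did not overlap, and each of those 10 reached that p, which is 0.0371 after Benjamini-Hochberg adjustment over the 13. Unless another p is given, the shares that follow are among these 10.

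Hexokinase, which traps glucose in the cell as glucose phosphate, showed a shift from Hk2 to Hk1. Hk1 measured 2070, 2313, 2175 and 2166 normalised counts in the wildtype and 4342, 4593, 5846 and 5757 in the knockout, 2.35-fold higher (log2 1.24 ± 0.12, adjusted p = 1.76e-21). Hk2, the insulin-regulated form of muscle, measured 6695, 6582, 6433 and 6650 in the wildtype and 7689, 4586, 2917 and 4960 in the knockout. Replicate 1 was above all wildtype libraries and the other 3 were below them, and the log2 fold change of -0.39 ± 0.23 did not pass (adjusted p = 0.20). Without replicate 1 it was -0.66 and passed (adjusted p = 0.0005), and without replicate 3 it was -0.20 (adjusted p = 0.35). The share of Hk1 in the sum of both per kilobase was 31.7%, 34.5%, 33.6% and 32.8% in the wildtype and 45.8%, 60.0%, 75.0% and 63.5% in the knockout. Hk2 was thus the more abundant hexokinase RNA of this pair in all 4 wildtype libraries, and Hk1 in 3 of 4 knockout libraries.

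Gpi1, which encodes the single isomerase between the hexokinase and phosphofructokinase steps, measured 6557, 6715, 6535 and 7017 normalised counts in the wildtype and 12522, 13136, 17222 and 13823 in the knockout. It was 2.11-fold higher (log2 1.08 ± 0.12, adjusted p = 1.07e-18), and replicate 3 had the highest value.

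Phosphofructokinase, the committed step of glycolysis, is a tetramer of muscle (Pfkm), liver (Pfkl) and platelet (Pfkp) subunits, and the genes for the first and last of these moved in opposite directions. Pfkm measured 13915, 13826, 12569 and 13194 normalised counts in the wildtype and 8953, 7913, 8833 and 7780 in the knockout. The groups were separated by more than the spread within either, for a log2 fold change of -0.68 ± 0.09 (adjusted p = 1.06e-13). Pfkp measured 1042, 1034, 1127 and 1030 in the wildtype and 3925, 4634, 4025 and 4554 in the knockout. It was 4.05-fold higher (log2 2.02 ± 0.09, adjusted p = 1.63e-97), with little spread in either group. The knockout values were highest in replicates 2 and 4, where the macrophage and fibroblast marker sums were also highest, and the log2 fold change was 1.98 without replicate 2 and 1.99 without replicate 4. Pfkl, at 1745, 1959, 2089 and 1964 in the wildtype and 2621, 3124, 1697 and 2663 in the knockout, had a log2 fold change of 0.38 ± 0.17 that did not pass (adjusted p = 0.0778). Without knockout replicate 3, the library below the wildtype range, its log2 fold change was 0.53 (adjusted p = 1.42e-06). Per kilobase, Pfkm made up 82.3 ± 1.5% of the 3 subunits' RNA in the wildtype and 55.6 ± 4.7% in the knockout, while Pfkp made up 6.65 ± 0.47% and 29.0 ± 2.3%, a share given as a description and not among those tested. The summed level of the family was 0.928 of the wildtype level under the size factors of DESeq2, 0.756 under total counts and 1.25 under total counts without mitochondrial rRNA, so no direction is given for the sum.

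The Pfkfb genes encode bifunctional enzymes that make and remove the sugar bisphosphate that switches phosphofructokinase on, and here too the members diverged. Pfkfb1, the form of liver and skeletal muscle, measured 200.2, 210.3, 128.3 and 183.2 normalised counts in the wildtype and 16.13, 33.89, 23.12 and 31.22 in the knockout. It was 6.96-fold lower (log2 -2.80 ± 0.27, adjusted p = 1.13e-22), the largest fall among the 32 genes. Pfkfb3, a form with high kinase activity that responds to growth signals and low oxygen, measured 79.53, 93.4, 136.1 and 122.9 in the wildtype and 189, 330.6, 364.1 and 243.8 in the knockout. It was 2.61-fold higher (log2 1.38 ± 0.25, adjusted p = 4.66e-07) and did not overlap between groups. Pfkfb2, the heart form and the most abundant of the 4 per kilobase in every library, measured 1978, 1836, 2584 and 2110 in the wildtype and 1968, 1975, 1583 and 1306 in the knockout (log2 -0.32 ± 0.17, adjusted p = 0.134). Pfkfb4 measured 79.95, 75.46, 71.55 and 91.34 in the wildtype and 134.9, 85.02, 89.9 and 126.7 in the knockout (log2 0.45 ± 0.22, adjusted p = 0.104). The Pfkfb4 difference passed without the length offset (0.70, adjusted p = 0.00116) and under total counts without mitochondrial rRNA (0.88, adjusted p = 0.000461). In the summed level per kilobase of the 4 genes, Pfkfb1 went from 14.3 ± 4.0% to 2.55 ± 0.94%, Pfkfb3 from 4.63 ± 0.77% to 15.1 ± 4.3%, and Pfkfb4 from 3.64 ± 0.54% to 6.24 ± 2.0%. Pfkfb2 held 77.4 ± 4.0% in the wildtype and 76.1 ± 4.8% in the knockout (exact p = 0.686, adjusted p = 0.686).

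**Figure D2:**
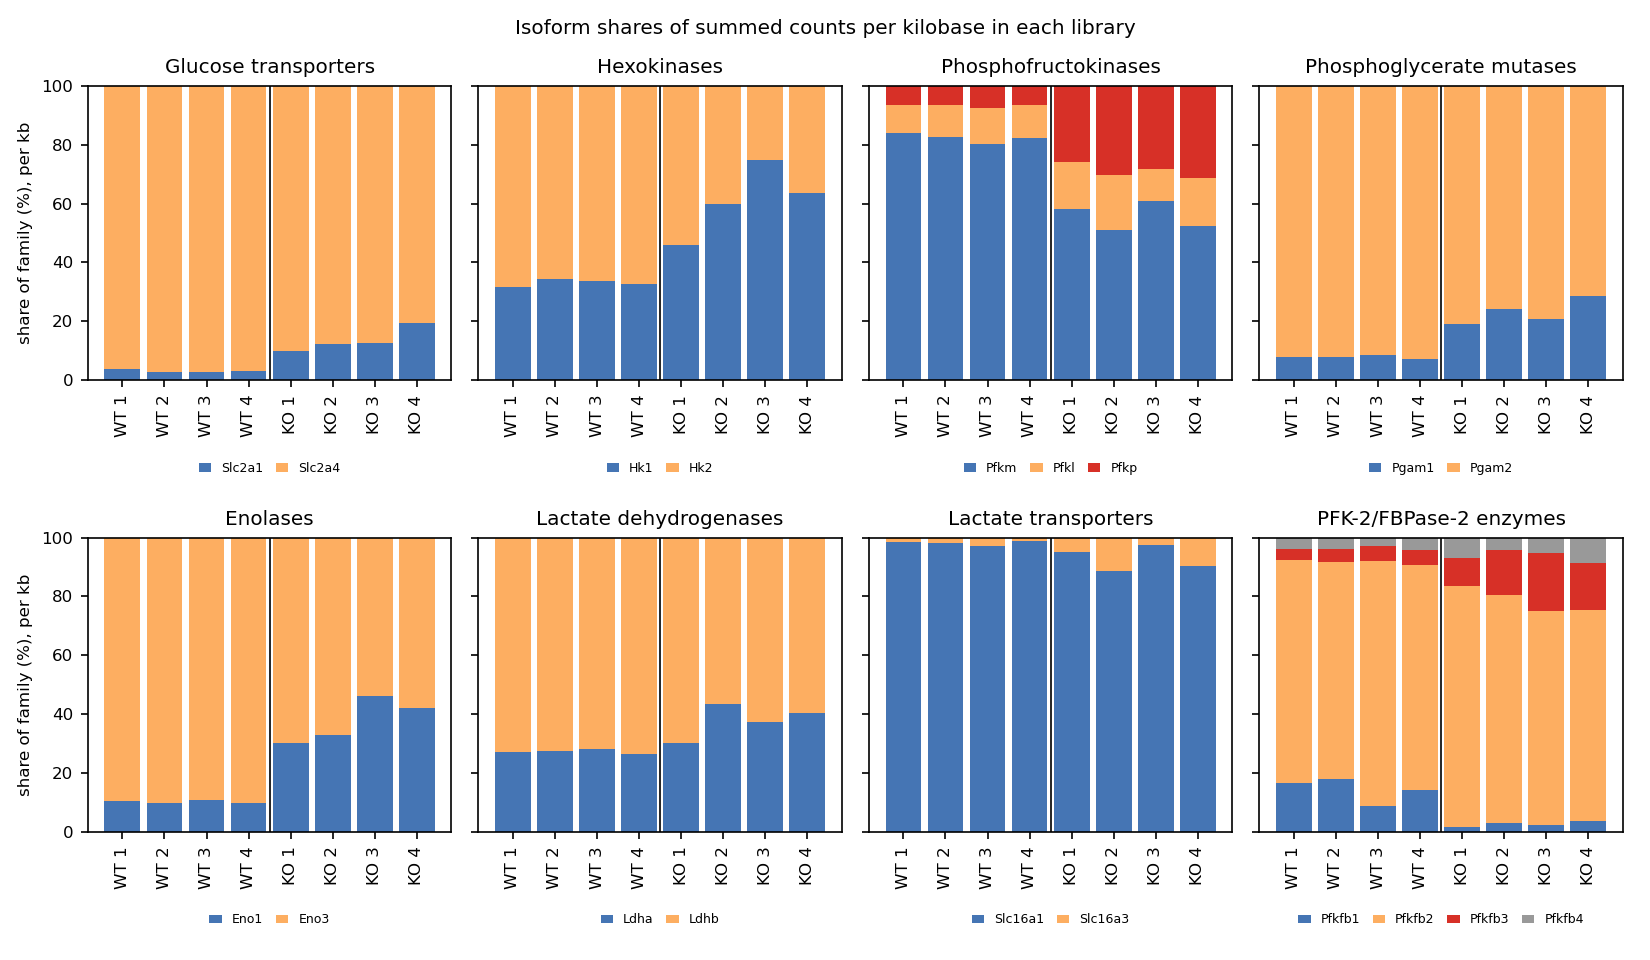
Stacked bars of the share of each isoform, in percent of its family's summed counts per kilobase, for 8 families in the 4 wildtype (WT) and 4 knockout (KO) libraries. The blue segments at the base of the phosphofructokinase (Pfkm) and Pfkfb1 panels shrink to the right of the dividing line, and those of Slc2a1, Hk1, Pgam1, Eno1 and Ldha grow, from 10.2% to 37.7% on average for Eno1.

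The steps from aldolase to phosphoglycerate kinase, which split the sugar and earn the first ATP, were all higher in the knockout. Aldoa, the aldolase of muscle, measured 29638, 29921, 33044 and 30915 normalised counts in the wildtype and 44818, 48248, 58036 and 45539 in the knockout (1.59-fold, log2 0.67 ± 0.11, adjusted p = 7.46e-09). Tpi1, the triose phosphate isomerase, measured 7390, 7672, 7969 and 7623 in the wildtype and 11957, 12771, 14082 and 11555 in the knockout (1.64-fold, log2 0.72 ± 0.09, adjusted p = 3.37e-14). Neither gene overlapped between groups, and in both replicate 3 was the highest knockout library. Gapdh, which makes the NADH of glycolysis, measured 36976, 41321, 41833 and 40697 in the wildtype and 90650, 91588, 105629 and 88532 in the knockout (2.34-fold, log2 1.23 ± 0.09, adjusted p = 6.58e-39). At 78750 ± 6521 normalised counts per kilobase in the knockout it was the most abundant of the 32 RNAs, as it was in the wildtype at 33648 ± 1844. Gapdh is widely used as a reference gene for normalising RNA measurements, and its level differed between these groups. Pgk1, the first ATP-yielding enzyme, measured 4833, 4933, 5194 and 4566 in the wildtype and 8790, 10274, 12400 and 9637 in the knockout (2.11-fold, log2 1.07 ± 0.12, adjusted p = 4.41e-17). Gapdh has 90 near-identical gene copies in the annotation and Pgk1 has 2, defined by 95% or more identical bases along an aligned stretch of 200 or more. They held 1.73% and 5.60% of the summed counts in the wildtype and 1.56% and 3.68% in the knockout, and adding them to the parent genes changed no call.

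Aldoc, the aldolase of brain, was close to the limit of detection. It had 8 counts over the 4 wildtype libraries and 55 over the 4 knockout libraries, a depth-corrected ratio of 7.83 with an exact 95% interval of 3.71 to 19.0 that covers counting error only. Its normalised counts were 2.546, 0.9562, 2.545 and 2.033 in the wildtype and 6.594, 18.4, 8.648 and 16.66 in the knockout, highest in knockout replicates 2 and 4. DESeq2 called it (adjusted p = 0.00172), but per kilobase it made up only 0.0264 ± 0.013% of Aldoa and Aldoc together in the knockout.

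Phosphoglycerate mutase and enolase, the steps between phosphoglycerate and phosphoenolpyruvate, each have a broadly expressed and a muscle gene, and the broad form rose in both. Pgam1 measured 962.4, 1027, 1167 and 973.1 normalised counts in the wildtype and 2668, 3064, 2943 and 3268 in the knockout, 2.89-fold higher (log2 1.53 ± 0.11, adjusted p = 2.73e-43). Knockout replicates 2 and 4 were again the highest, with log2 fold changes of 1.52 without replicate 2 and 1.49 without replicate 4. Pgam2, the muscle mutase, measured 4498, 4817, 5058 and 4985 in the wildtype and 4595, 3891, 4517 and 3303 in the knockout. Its groups overlapped and its log2 fold change of -0.25 ± 0.12 did not pass (adjusted p = 0.112), although it did without knockout replicate 1 (-0.31, adjusted p = 0.0437) or without replicate 3 (-0.30, adjusted p = 0.0292). The share of Pgam2 in both was 92.0%, 92.1%, 91.5% and 92.7% in the wildtype and 81.0%, 75.8%, 79.1% and 71.4% in the knockout.

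Eno1, the broadly expressed enolase, measured 1953, 1869, 2024 and 1789 normalised counts in the wildtype and 4038, 4321, 5329 and 4216 in the knockout. It was 2.35-fold higher (log2 1.23 ± 0.11, adjusted p = 1.98e-25). Eno3, the muscle enolase, measured 15795, 16198, 16072 and 15552 in the wildtype and 8899, 8361, 5956 and 5566 in the knockout, 2.21-fold lower (log2 -1.14 ± 0.16, adjusted p = 1.79e-11). Knockout replicates 3 and 4 were the lowest. Eno3 fell from 89.8 ± 0.43% to 62.3 ± 7.4% of the summed enolase RNA per kilobase. Since Eno3 was the larger part, the summed level was 0.646 of the wildtype level, without overlap between groups, and it was also below the wildtype level under total counts (0.525) and under total counts without mitochondrial rRNA (0.868). Of the 10 family sums, this was the only one below the wildtype level under all 3 scalings, and the sums of Hk1 with Hk2 and of Aldoa with Aldoc were the only ones above it under all 3.

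Pkm, whose transcripts give the muscle and the embryonic pyruvate kinase by alternative splicing that gene-level counts do not separate, measured from 16049 to 16670 normalised counts in the wildtype and 23297, 23906, 26746 and 21251 in the knockout. It was 1.45-fold higher (log2 0.54 ± 0.09, adjusted p = 4.87e-08) and did not overlap between groups. In all, of the 16 genes for glycolytic enzymes from hexokinase to pyruvate kinase, 11 were higher, 2 were lower (Pfkm and Eno3) and 3 did not pass (Hk2, Pfkl and Pgam2). Of all genes tested 18.2% were higher and 15.5% lower. The 11 include Aldoc, which was close to the limit of detection. Hk2 and Pgam2 passed as lower under total counts, and Pfkl passed as higher under total counts without mitochondrial rRNA.

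The lower genes Slc2a4, Pfkm, Eno3 and Pygm (described below) and the uncalled Pgam2 are muscle forms, and 7 of 8 cardiomyocyte marker genes were lower as well, Myh6 from 498884 to 599565 in the wildtype to 242062 to 335588 in the knockout. The other lower members were Pfkfb1, the form of liver and skeletal muscle, and Ldhb, the heart-type lactate dehydrogenase described below. Aldoa, the muscle aldolase, was higher in the same libraries. Gys1, the synthase of muscle described below, was also called higher, though not under every alternative. The part of the cardiomyocyte markers' fall in these results was not tested.

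**Figure D3:**
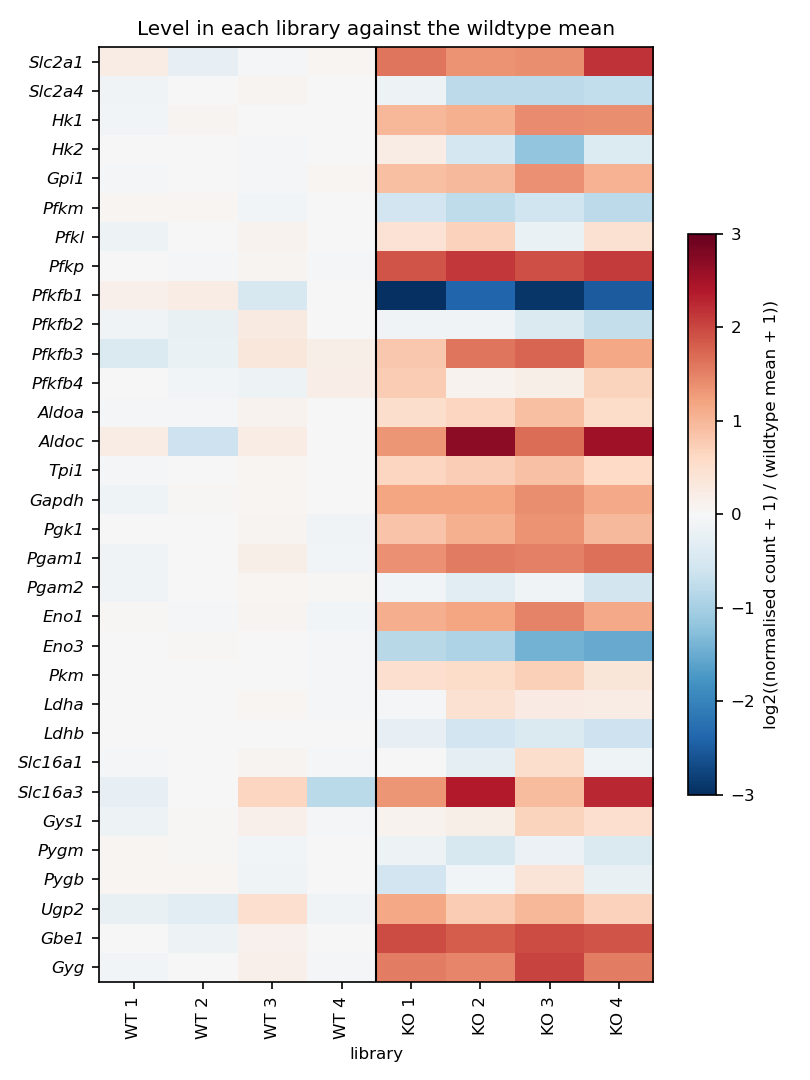
Heat map of the 32 genes (rows) in the 8 libraries (columns; WT wildtype, KO knockout), with the colour giving the log2 ratio of the normalised count plus 1 to the wildtype mean plus 1, red above and blue below. The 4 knockout columns are red in most rows, Pfkfb1 and Eno3 are blue in all 4, and Hk2, Slc16a1 and Pygb change colour between knockout libraries.

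Lactate dehydrogenase joins heart-type subunits from Ldhb, which favour the use of lactate, and muscle-type subunits from Ldha, which favour its production. Ldhb measured 12926, 12622, 12756 and 12871 normalised counts in the wildtype and 10856, 8587, 9476 and 8323 in the knockout, a log2 fold change of -0.46 ± 0.10 (adjusted p = 7.11e-05). Under scaling to total counts without mitochondrial rRNA it was -0.04 and the call was lost. Ldha measured 6643, 6564, 6935 and 6347 in the wildtype and 6485, 9145, 7842 and 7744 in the knockout, so that knockout replicate 1 lay within the wildtype range and the other 3 above it. Its log2 fold change of 0.24 ± 0.12 did not pass (adjusted p = 0.103), and without replicate 1 it was 0.32 and passed (adjusted p = 0.00447). The share of Ldhb in the sum per kilobase was 72.9%, 72.7%, 71.8% and 73.7% in the wildtype and 69.9%, 56.5%, 62.6% and 59.8% in the knockout, with the smallest step in replicate 1. Ldhb remained the more abundant of the pair in every library.

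Monocarboxylate transporters carry lactate with a proton. Slc16a1 (MCT1), which serves uptake in the heart, measured from 4692 to 5167 normalised counts in the wildtype and 4923, 3938, 7041 and 4444 in the knockout, with no change past the threshold (log2 0.06 ± 0.17, adjusted p = 0.816). It was -0.13 without knockout replicate 3, and under total counts without mitochondrial rRNA it was 0.48 and passed (adjusted p = 0.00358). Slc16a3 (MCT4), a low-affinity form of glycolytic cells that exports lactate, measured 32.32, 39.21, 61.19 and 21.67 in the wildtype and 98.88, 204.5, 75.68 and 188.3 in the knockout. It was 3.69-fold higher (log2 1.89 ± 0.39, adjusted p = 1.20e-05) from a low level, and replicates 2 and 4 had the highest values. Its share of both transporters per kilobase was 1.93 ± 0.73% in the wildtype and 7.13 ± 4.1% in the knockout, with overlap between groups (exact p = 0.0571, adjusted p = 0.0675). The macrophage marker gene Cd68 was also highest in knockout replicates 2 and 4, at 195.3, 289.7, 153.6 and 285.9 in replicates 1 to 4 and 74.27 to 100.8 in the wildtype. The summed level of the 6 macrophage genes was 5471, 9559, 3722 and 8303 in those knockout libraries. The summed level of the 6 fibroblast genes was 15334, 26705, 13218 and 20299, also highest in replicates 2 and 4, against 10769 to 11341 in the wildtype. Of the 32 members, 6 had their highest values among the knockout libraries in replicates 2 and 4, namely Slc16a3, Aldoc, Pfkp, Pgam1, Pfkl and Pfkfb1, of which Pfkfb1 was lower there than in every wildtype library. The part of macrophages and of fibroblasts in these 6 was not tested.

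Glycogen is built from UDP-glucose by a primer protein, glycogenin, by glycogen synthase and by the branching enzyme, and the genes for these proteins and for the enzyme that makes UDP-glucose were all higher, Gys1 with the least certainty. Gbe1, the branching enzyme, measured 927.4, 835.5, 1012 and 912 normalised counts in the wildtype and 3568, 3223, 3567 and 3438 in the knockout. It was 3.74-fold higher (log2 1.90 ± 0.09, adjusted p = 2.59e-91), with a narrow spread in both groups. Gyg, the glycogenin, measured 1386, 1465, 1632 and 1401 in the wildtype and 4254, 4031, 5966 and 4271 in the knockout, 3.15-fold higher (log2 1.65 ± 0.14, adjusted p = 1.79e-28). Ugp2, which makes UDP-glucose, measured 3196, 2982, 5254 and 3496 in the wildtype and 8302, 6282, 7409 and 6027 in the knockout. It was 1.88-fold higher (log2 0.91 ± 0.19, adjusted p = 1.68e-05), although wildtype replicate 3 came close to the lowest knockout library. Gys1, the synthase of muscle, changed less, from a range of 1775 to 2197 to one of 2116 to 3140 with overlap (log2 0.38 ± 0.15, adjusted p = 0.0358). It did not pass with edgeR (adjusted p = 0.0529), under total-count scaling (log2 0.08, adjusted p = 0.729), or without wildtype replicate 1, 2 or 4 or knockout replicate 3 or 4 (adjusted p from 0.0742 to 0.135).

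Glycogen phosphorylase releases glucose phosphate from glycogen. Pygm, the muscle form and the more abundant per kilobase in every library, measured from 15593 to 17013 normalised counts in the wildtype and 14854, 11756, 14458 and 12043 in the knockout, a log2 fold change of -0.30 ± 0.11 (adjusted p = 0.0158). That call was lost without wildtype replicate 1, 2 or 4 or knockout replicate 2 or 4 (adjusted p from 0.0526 to 0.0723), and the log2 fold change was 0.12 (adjusted p = 0.296) under total counts without mitochondrial rRNA. Pygb, the brain form, measured from 12938 to 14625 in the wildtype and 9378, 13273, 18310 and 12064 in the knockout, on both sides of the wildtype range (log2 -0.08 ± 0.18, adjusted p = 0.788, with 0.06 without knockout replicate 1 and -0.28, adjusted p = 0.0515, without knockout replicate 3). The share of Pygb was 38.2 ± 0.48% in the wildtype and 41.6 ± 7.2% in the knockout (exact p = 0.40, adjusted p = 0.433).

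Beyond the 32 members, 55 other genes of glucose uptake, glycolysis, lactate and glycogen metabolism were listed. Of these 8 were higher, 13 were lower, 27 did not pass and 7 had no adjusted p, 4 of which had no counts. Of the 48 with an adjusted p 43.8% were called, against 33.7% of all genes tested, and the median log2 fold change was 0.05. Under the scalings to total counts with and without mitochondrial rRNA the split was 7 higher and 19 lower, and 26 higher and 7 lower, and it moved the same way as that of all genes, of which 24.6% and 87.7% of the called ones were higher. Of the 8 with the largest changes at a mean of at least 50 normalised counts, 7 are given here. Stbd1, which binds glycogen and delivers it to lysosomes, rose from 90.68, 138.3, 171.6 and 135.9 normalised counts to 949.8, 1449, 2172 and 1464 (log2 3.49 ± 0.25, adjusted p = 8.71e-41), and Pygl, the liver phosphorylase, rose from a range of 79.15 to 96.6 to one of 153 to 333.2 (log2 1.51 ± 0.24, adjusted p = 6.12e-09). Phkg1, the muscle catalytic subunit of the kinase that activates phosphorylase, fell from a range of 382 to 603.4 to one of 100.6 to 145 (log2 -2.07 ± 0.19, adjusted p = 3.55e-26). The other phosphorylase kinase genes listed, Phka1, Phka2, Phkb and Phkg2, did not pass the test.

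Gpd1, the cytosolic glycerol phosphate dehydrogenase that draws on a glycolytic intermediate and oxidises NADH, rose from a range of 905.3 to 1068 normalised counts to 2710, 3276, 6043 and 3345 (log2 1.98 ± 0.22, adjusted p = 2.74e-17). Fbp2, the muscle bisphosphatase that opposes phosphofructokinase, fell from a range of 201.2 to 364.8 to one of 40.43 to 179.7 (log2 -1.76 ± 0.39, adjusted p = 5.65e-05). Ldhd, the mitochondrial dehydrogenase of D-lactate, fell from a range of 680.7 to 733.6 to one of 208.9 to 322.7 (log2 -1.53 ± 0.15, adjusted p = 3.70e-22). Tbc1d4, which holds GLUT4 vesicles inside the cell until insulin acts, fell from a range of 2640 to 2778 to one of 901.2 to 1143 (log2 -1.43 ± 0.10, adjusted p = 7.99e-47). None of these 7 genes overlapped between its groups, but they were picked as called genes with large changes. Of the 55 listed genes 17 did not overlap, where 33.0% of all genes tested did not.

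**Figure D4:**
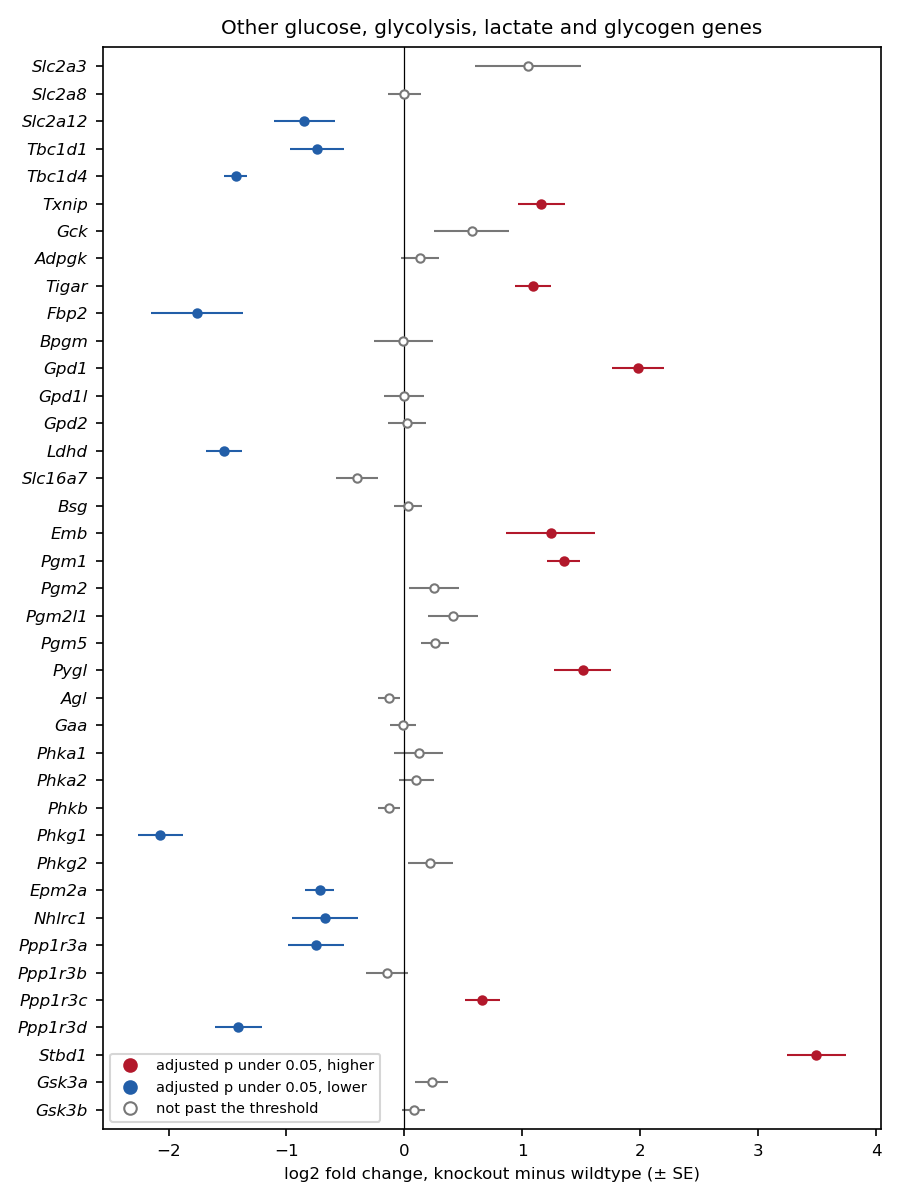
Log2 fold change with its standard error from DESeq2 for 39 other pathway genes with an adjusted p and a mean of at least 50 normalised counts, ordered from glucose uptake at the top through glycolysis and lactate to glycogen at the bottom. Red points mark 8 higher genes, blue points 10 lower genes and open grey points the rest, and Stbd1 and Phkg1 are the extremes.

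Genes outside the pathway that respond to low oxygen were listed because many glycolytic genes share that response. Of 12, 4 were higher (Car9, Adm, Ndrg1 and Hif1a) and 4 were lower (Egln1, Egln3, Ankrd37 and Epas1), for a median log2 fold change of 0.11. The share called was thus 66.7%, against 33.7% of all genes tested, of which 18.2% were higher and 15.5% lower. Car9 was near the floor, with normalised counts no higher than 1.93 in the wildtype and from 2.099 to 11.71 in the knockout. Hif1a, the oxygen-regulated transcription factor subunit, rose from a range of 1636 to 1938 normalised counts to one of 5027 to 6707 (log2 1.64 ± 0.12, adjusted p = 7.74e-42). Egln1, the hydroxylase that marks that subunit for destruction and is itself a target gene, fell from a range of 4122 to 4513 to one of 2042 to 2201 (log2 -1.03 ± 0.07, adjusted p = 7.81e-42). Vegfa, a target gene in many tissues, measured 4296 to 4972 in the wildtype and 3865 to 5684 in the knockout and did not pass (log2 -0.06 ± 0.14, adjusted p = 0.77). The list did not move in 1 direction, and its split followed the scaling, with 3 higher and 6 lower under total counts and 7 higher and 1 lower under total counts without mitochondrial rRNA. It was 2 higher and 2 lower without wildtype replicate 4, and 3 higher and 3 lower with edgeR and without wildtype replicate 2 or knockout replicate 4. Hif1a was higher and Egln1 lower by more than either scaling shift.

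Promoter sequences from RefSeq (GRCm38.p6), covering 250 bases before and 50 bases after the transcription start, were found for 31 of the 32 members and not for Slc2a4. For the 11 members with several listed starts, the start nearest to the 5' end of the GENCODE gene was taken. The letters ACGTG, the core of the hypoxia response element, occurred on either strand in 15 of 31 member windows (48.4%), against 19.6% of all 32851 windows. They stood in 9 of the 18 higher members, 2 of the 5 lower members with a window and 4 of the 8 uncalled members. The E-box CACGTG contains that core and was in 4 member windows (12.9%, against 7.15% of all). A GC box, GGGCGG, was in 14 of the 18 higher members (77.8%), 1 of the 5 lower members and 5 of the 8 uncalled members (62.5%), against 35.7% of all windows. CTANNNNTAG, a loose pattern for the MEF2 site of muscle genes with any base at its 4 middle positions, was in 1 member window, that of Ldhb. It was in 3.69% of all windows, and other forms of the MEF2 site were not searched. TGATGNAA, the core of the amino acid response element, was in 0 of 31 and in 3.97% of all. A match is a run of letters and not an occupied site, and glycolytic promoters were not drawn at random from all promoters. The windows below are shown because they set the uptake gene Slc2a1, the higher enzymes Gapdh, Pgk1 and Pgam1, the muscle mutase Pgam2 and the lower Ldhb side by side. They are written 5' to 3' along the gene's strand, with matches to the hypoxia response core, the GC box and the MEF2 pattern on either strand in capitals.
Slc2a1, chr4:119108495-119108794, plus strand: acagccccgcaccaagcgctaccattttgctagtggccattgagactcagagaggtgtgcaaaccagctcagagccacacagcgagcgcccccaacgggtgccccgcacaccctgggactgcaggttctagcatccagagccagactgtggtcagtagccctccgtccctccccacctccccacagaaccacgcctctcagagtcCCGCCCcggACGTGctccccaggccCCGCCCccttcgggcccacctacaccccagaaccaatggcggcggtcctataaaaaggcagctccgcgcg
Gapdh, chr6:125165724-125166023, minus strand: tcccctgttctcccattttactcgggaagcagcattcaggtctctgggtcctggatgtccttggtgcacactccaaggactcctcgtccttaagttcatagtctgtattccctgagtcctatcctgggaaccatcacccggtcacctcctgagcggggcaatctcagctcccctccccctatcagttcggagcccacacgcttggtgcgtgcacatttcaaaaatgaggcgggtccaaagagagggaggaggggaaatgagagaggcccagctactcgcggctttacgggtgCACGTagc
Pgk1, chrX:106186850-106187149, plus strand: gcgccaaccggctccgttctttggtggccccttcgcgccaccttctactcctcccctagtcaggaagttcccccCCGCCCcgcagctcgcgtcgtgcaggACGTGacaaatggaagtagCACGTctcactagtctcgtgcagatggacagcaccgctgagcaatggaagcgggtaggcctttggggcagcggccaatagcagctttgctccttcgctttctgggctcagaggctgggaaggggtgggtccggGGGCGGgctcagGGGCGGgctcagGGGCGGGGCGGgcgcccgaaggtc
Pgam1, chr19:41911621-41911920, plus strand: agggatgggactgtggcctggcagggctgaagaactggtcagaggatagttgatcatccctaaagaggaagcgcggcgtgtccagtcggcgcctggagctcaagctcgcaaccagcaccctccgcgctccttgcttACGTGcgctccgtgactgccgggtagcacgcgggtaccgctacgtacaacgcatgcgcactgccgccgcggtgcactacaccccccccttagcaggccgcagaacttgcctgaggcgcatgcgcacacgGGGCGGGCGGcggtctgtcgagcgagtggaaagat
Pgam2, chr11:5803747-5804046, minus strand: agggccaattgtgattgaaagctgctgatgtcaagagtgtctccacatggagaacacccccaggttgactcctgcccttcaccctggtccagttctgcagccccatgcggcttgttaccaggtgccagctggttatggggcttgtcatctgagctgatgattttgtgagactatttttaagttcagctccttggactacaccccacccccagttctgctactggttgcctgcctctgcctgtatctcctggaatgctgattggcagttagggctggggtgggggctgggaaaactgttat
Ldhb, chr6:142507908-142508207, minus strand: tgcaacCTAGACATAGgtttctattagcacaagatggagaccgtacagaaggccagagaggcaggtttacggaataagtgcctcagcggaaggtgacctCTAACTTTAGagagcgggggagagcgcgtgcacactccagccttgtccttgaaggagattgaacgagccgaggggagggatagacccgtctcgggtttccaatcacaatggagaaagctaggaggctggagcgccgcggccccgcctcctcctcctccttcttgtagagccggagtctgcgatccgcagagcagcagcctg
Slc2a1, Pgk1 and Pgam1, which were higher, hold both the ACGTG core and GC boxes. So do the windows of Ldha, Hk2 and Slc16a1, which did not pass and are not shown. The higher Pfkp, Gbe1 and Gpi1 hold GC boxes and no core, and the lower Pfkm holds the core and no GC box. The core was in 50.0% of the higher and 50.0% of the uncalled members. The Gapdh window holds the core only, just after the start. The Pgam2 window holds none of the 3 letter patterns as searched, which leaves out other forms of the MEF2 site. The Ldhb window holds 2 matches to the loose MEF2 pattern, both with a G or C at a middle position, and neither of the others. The letters alone do not show that either match is a MEF2 site.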

How the data were processed

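Whole-heart total RNA was depleted of cytoplasmic rRNA and sequenced in 8 paired-end libraries, grouped by their titles as 4 wildtype and 4 knockout. The authors made the deposited expected counts and effective lengths (other values, in bases) with RSEM 1.2.31 and Bowtie2 on GENCODE M13 transcripts (mm10) with added mitochondrial sequences, counting reverse-stranded pairs. RSEM divides reads shared by similar genes and can give fractions. The authors also deposited TPM values, which were not used. The authors' table of fold changes and p-values was not used, nor were 8 columns of normalised counts whose names match no sample.

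Expected counts were rounded. The fit was made over all genes and libraries with DESeq2 1.42.0 (R 4.3.3), genotype being its only term and effective length its offset, and a Benjamini-Hochberg adjusted p under 0.05 was a call. Symbols and coordinates came from GENCODE M21 (GRCm38) and matched 50339 of 50563 Ensembl identifiers. Levels were compared between genes per kilobase of effective length, and isoform shares by exact permutation tests. Near-identical copies were found with blastn 2.17.0.

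Depth ranged from 35218541 to 47743376 counts. Replicates differed by more than sampling noise (chi-square per degree of freedom from 4.65 to 52.9 within groups), so each counted as 1. The members, lists, markers and tests were chosen with earlier results of these data known. All 32 members are named. Values in every library are given for called members with at least a 1.5-fold change and for families whose shares differed, and of the 8 most changed other pathway genes with a mean of at least 50, 7 are named and 1 is not reported here. Other genes named, among them Cd68, Myh6 and Vegfa, were chosen after their values were seen. Alternatives were the edgeR 4.0.16 quasi-likelihood test with TMM, a fit without the length offset, fits scaled by nuclear genes or by total counts (mitochondrial rRNA kept or removed), a filter of 10 counts in 4 libraries, the replicate number as a block, omission of each library, and members summed with their copies. On simulated data for knockout against wildtype, with 200 changed genes among 15034 tested, DESeq2 called 99.3% of log2 changes of 1 or 2. It called 83.1% of changes of 0.585, and 10% of its calls were unchanged genes, more than the threshold of 0.05 aims for. The simulated spread came from the wildtype libraries, and all changed genes averaged at least 50 wildtype counts. In the data 33.7% of genes were called. The knockout spread was often larger, as for Hk2 (SD of 115 in the wildtype and 1978 in the knockout). These rates therefore do not carry over to the data.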

Additional observations from a re-analysis of the deposited data

Results flagged for a closer look

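In 90 groups of 4 values, the member genes' normalised counts in each group and the isoform shares, 3 had a library far from the other 3 by Dixon's test at the 95% level, which chance alone gives in about 1 of 20 groups, or 4.5 here. Slc2a4 measured 5325 normalised counts in knockout replicate 1 against 3467 to 3569 in the other knockout libraries. Pfkp measured 1127 in wildtype replicate 3 against 1030 to 1042 in the other wildtype libraries. Gyg measured 5966 in knockout replicate 3 against 4031 to 4271 in the other knockout libraries.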

How the results depend on the processing

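Of the 24 called members, 20 kept their direction and their call under each alternative that tested them, and the exceptions were Slc2a4, Ldhb, Gys1 and Pygm. Of 510 recomputed log2 fold changes of the 32 members, 474 kept direction and side of the threshold, 14 no longer passed, 13 newly passed and 9 changed sign. Newly passing under total counts were Hk2 (-0.68), Pfkfb2 (-0.62) and Pgam2 (-0.55), and under total counts without mitochondrial rRNA Pfkl (0.82), Pfkfb4 (0.88), Ldha (0.66) and Slc16a1 (0.48). Members called numbered from 22 to 27 when each library was left out in turn, 22 with edgeR, where Aldoc fell below the filter on low counts, and 24 with the replicate block. Under total counts without mitochondrial rRNA 3 members were called lower in place of 6. The same scaling reversed log2 fold changes that had not passed, or barely passed, to 0.05 for Hk2, 0.11 for Pfkfb2, 0.17 for Pgam2, 0.12 for Pygm and 0.34 for Pygb, and total counts reversed Ldha to -0.06 and Slc16a1 to -0.25. The scalings shift all genes by construction. Leaving out each library in turn gave -0.13 to 0.17 for Slc16a1, with -0.13 without knockout replicate 3, and -0.28 to 0.06 for Pygb, with 0.06 without knockout replicate 1; for both genes the cause was not tested. The share of Slc16a3 rose by 2.34 percentage points without length correction and passed (adjusted p = 0.0338), against 5.21 with it. Without length correction the share of Pgam2 changed by -24.9 in place of -15.2 percentage points and that of Pfkfb1 by -6.31 in place of -11.8.

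Same-numbered libraries did not deviate together (correlations of -0.0136, -0.0436, -0.0735 and 0.0723), so the replicate block shares only a number. It gave 5525 called genes in place of 6728 and left the members at 18 higher and 6 lower. For shares, with p taken as double the smaller tail, a test within 4 pairs or with 1 library left out cannot pass the threshold, and only the sizes were compared. Genes near the floor, Aldoc above all, are limited by depth.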
